A study of Mus musculus with 12 samples.

Results

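Transcription and protein-turnover factors that act downstream of, or feed back on, the circadian clock were followed through the hearts of mice with and without cardiomyocyte Cited4. They were chosen by gene symbol from what they are known to do: Dbp, Tef, Hlf, Nfil3, Nr1d1, Nr1d2, Bhlhe40, Bhlhe41 and Usp2. These are 9 genes of 55874 entries in the deposited table and of 15226 genes with enough counts to be tested, and all 9 passed the filter on low counts. Earlier results of these data were known when the 9 genes and the other lists were chosen. Counts set against the share of all genes therefore describe these lists and are not independent tests.

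Hearts came from 4 groups of 3 libraries, and each library was made from whole heart. Flox mice carried CITED4 flox/flox alleles, and knockout (KO) mice came from crossing them to aMHC-cre mice, whose cre is driven in cardiomyocytes. By this design other cells of the heart should keep the gene, which was not tested. Mice of either genotype were labelled sedentary or labelled exercise, which stands for voluntary wheel running, and the time given is 8 weeks. No group had cre with intact Cited4 alleles, so the transgene and the loss of Cited4 cannot be told apart. The words of the sample titles and the letter codes beside them point opposite ways for the treatment, and the words were used. If the letters are right, every direction given here between the treatment labels turns, the interaction included, and the genotype comparisons within a label trade places. Age, sex, animal identity and the hour at which hearts were taken are not in the labels. P-values therefore measure only the spread between these libraries, which may be partly technical, and the part of the hour of collection in any difference was not tested.

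As background, the clock of mouse cells is a transcriptional feedback loop in which BMAL1 (encoded by Arntl) and CLOCK switch on the Per and Cry genes through E-boxes, and the PER and CRY proteins then repress them. A second loop runs through REV-ERB alpha and beta (Nr1d1 and Nr1d2), which repress Arntl from ROR elements that the ROR receptors activate. The output arm consists of DBP, TEF and HLF, the PAR bZIP activators of D-box genes, and of NFIL3 (E4BP4), which represses from the same D-boxes. BHLHE40 and BHLHE41 (DEC1 and DEC2) are repressors that compete at E-boxes, and USP2 is a deubiquitinase with rhythmic transcripts in many mouse tissues. In mouse tissues Dbp, Tef, Hlf, Nr1d1, Nr1d2 and Per3 reach their peaks in one part of the day, and Arntl, Npas2 and Nfil3 near the opposite part. In whole tissue, fewer cells of a type and less RNA per cell cannot be told apart.

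Promoter sequence is shown for the genes that carry an element named above, since the loops described run through these elements. RefSeq promoter entries (GRCm38.p6) matched 8 of the 9 genes and not Bhlhe40, and Tef has a pair of entries. The 250 bases before each start were searched on both strands for the E-box CACGTG, the related CACGTT, the D-boxes TTATGTAA and TTATGCAA, the ROR element cores TAGGTCA and TGGGTCA, and the cyclic AMP element TGACGTCA. No letter string searched contains another. Sequence outside these 250 bases was not searched. CACGTG stood in 2 of the 8 genes, Tef (at both starts) and Bhlhe41, against 6.02% of 32851 RefSeq promoters. The shares of promoters are counted per entry and not per gene. At the first start of Tef the element lies in an annotated exon and is not shown. CACGTT stood in Nr1d1 (3.85% of promoters), a ROR core in Nfil3 (5.38%) and TGACGTCA in Hlf (1.55%). No D-box string was found in the 8 genes, against 1.5% of promoters. Ciart and Per3, the core loop genes whose levels were most like those of several of the 9 genes, are shown beside them. Capitals mark the element, and each sequence is read 5′ to 3′ on the gene's own strand.
Tef (second start, chr15:81811236-81811321, plus strand): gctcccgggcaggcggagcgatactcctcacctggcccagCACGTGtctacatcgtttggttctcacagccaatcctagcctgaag
Bhlhe41 (chr6:145865559-145865613, minus strand): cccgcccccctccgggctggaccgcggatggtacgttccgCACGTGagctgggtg
Ciart (chr3:95882252-95882384, minus strand): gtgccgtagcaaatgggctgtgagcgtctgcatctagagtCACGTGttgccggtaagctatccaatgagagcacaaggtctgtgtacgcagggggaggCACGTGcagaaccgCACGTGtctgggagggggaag
Nr1d1 (chr11:98775378-98775445, minus strand): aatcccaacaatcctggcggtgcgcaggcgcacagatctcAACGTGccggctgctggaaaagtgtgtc
Nfil3 (chr13:52981040-52981061, minus strand): cgctcggaacTGACCTActaac
Hlf (chr11:90390918-90390966, minus strand): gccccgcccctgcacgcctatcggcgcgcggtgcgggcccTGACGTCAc
Per3 (chr4:151044776-151044910, minus strand): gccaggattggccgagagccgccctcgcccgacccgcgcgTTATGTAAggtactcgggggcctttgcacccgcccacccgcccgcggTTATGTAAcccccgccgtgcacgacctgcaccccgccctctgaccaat
The Nr1d1 and Nfil3 elements lie on the other strand, so that CACGTT appears as its reverse complement AACGTG, and TAGGTCA as TGACCTA. The 22 bases of Nfil3 lie in an annotated exon, and the other windows shown hold no exon base. The Ciart window has the E-box at 3 places and the Per3 window has TTATGTAA at 2. A match of letters is not a test of binding.

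All 9 genes are protein coding in GENCODE M21 on GRCm38. Dbp lies at chr7:45705088-45710203, Tef at chr15:81802421-81826863 and Hlf at chr11:90336536-90390895. Nfil3 lies at chr13:52967209-52981073, Nr1d1 at chr11:98767932-98775333 and Nr1d2 at chr14:18204054-18239127. Bhlhe40 and Bhlhe41 share a chromosome, at chr6:108660629-108666925 and chr6:145858243-145865558, and Usp2 lies at chr9:44067021-44095627. The strand setting of the counting is not given in the sources used here, so reads of a gene and of a partner on the other strand cannot be told apart. Exons of Sphk2 on the other strand cover 18.0% of the exon bases of Dbp, those of Thra 8.55% of Nr1d1, and those of the predicted locus Gm43909 19.1% of Bhlhe41. CPM, the unit of every level here, divides counts by the size of the library. Over all libraries Sphk2 stood between 13.0 and 23.1 CPM, Thra between 65.8 and 89.7 CPM and Gm43909 between 0.498 and 2.17 CPM. Smaller overlaps of 2.45% to 4.15% of exon bases touch Tef, Bhlhe40 and Usp2.

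Library totals ran from 17465432 to 20467300 counts. Cited4, a transcriptional co-regulator, stood at 10.1 to 23.9 CPM in the 6 Flox libraries and at 0 to 0.241 CPM in the 6 KO libraries, so the genotype labels held in every library. Markers of ventricular cardiomyocytes were detected in every library. They summed to 63180 to 66379 CPM in Flox hearts labelled sedentary against 58235 to 62017 in those labelled exercise, and to 46381 to 56183 against 50757 to 64388 in KO. Fibroblast markers summed to 632 to 699 against 718 to 1057 CPM in Flox and to 842 to 1162 against 723 to 1144 in KO. In Flox neither sum overlapped between the treatment labels, so both moved with the differences of the clock genes in Flox. At an edgeR unadjusted p under 0.05, none of the 8 ventricular markers differed there. At that p 2 of 6 fibroblast, 2 of 6 endothelial and 1 of 6 macrophage markers were higher with the exercise label in Flox. The part of these cell types was not tested. The summed level of 8 atrial markers spread widely, from 159 CPM (Flox labelled exercise 3) to 21441 CPM (KO labelled sedentary 3). It was 229, 239 and 4086 CPM in the Flox libraries labelled sedentary and 169, 4671 and 159 in those labelled exercise, and 1526, 11063 and 21441 against 3320, 184 and 3100 in KO. The groups overlapped in each of the 4 pairwise comparisons. None of the 8 atrial markers passed the edgeR test in any of them, and their median log2 difference was 2.92 for KO over Flox with the sedentary label and -2.36 for the exercise label in KO.

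Per kilobase of exon, the Flox hearts labelled sedentary held most Dbp (71.6 ± 13.2 CPM per kb, SD, n = 3), followed by Nr1d1 (52.0 ± 7.69). Tef (28.9 ± 9.62), Nr1d2 (26.7 ± 4.83) and Usp2 (25.5 ± 7.16) came next and did not differ beyond their spread. Bhlhe40 (14.2 ± 0.936), Bhlhe41 (7.09 ± 0.912), Hlf (5.61 ± 2.63) and Nfil3 (2.25 ± 0.717) closed the order, with the ranges of Bhlhe41 and Hlf overlapping. In the Flox hearts labelled exercise the order of mean levels was another. Nr1d1 (21.9 ± 11.0 CPM per kb) came first, then Nr1d2 (12.6 ± 2.52), Usp2 (12.3 ± 1.90), Tef (10.3 ± 2.17) and Dbp (9.21 ± 7.33). Nfil3 (8.07 ± 2.59), Bhlhe40 (7.54 ± 0.757), Bhlhe41 (2.70 ± 0.827) and Hlf (1.98 ± 0.153) followed. The ranges of neighbours in this order overlapped, except those of Bhlhe40 and Bhlhe41.

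**Figure D1:**
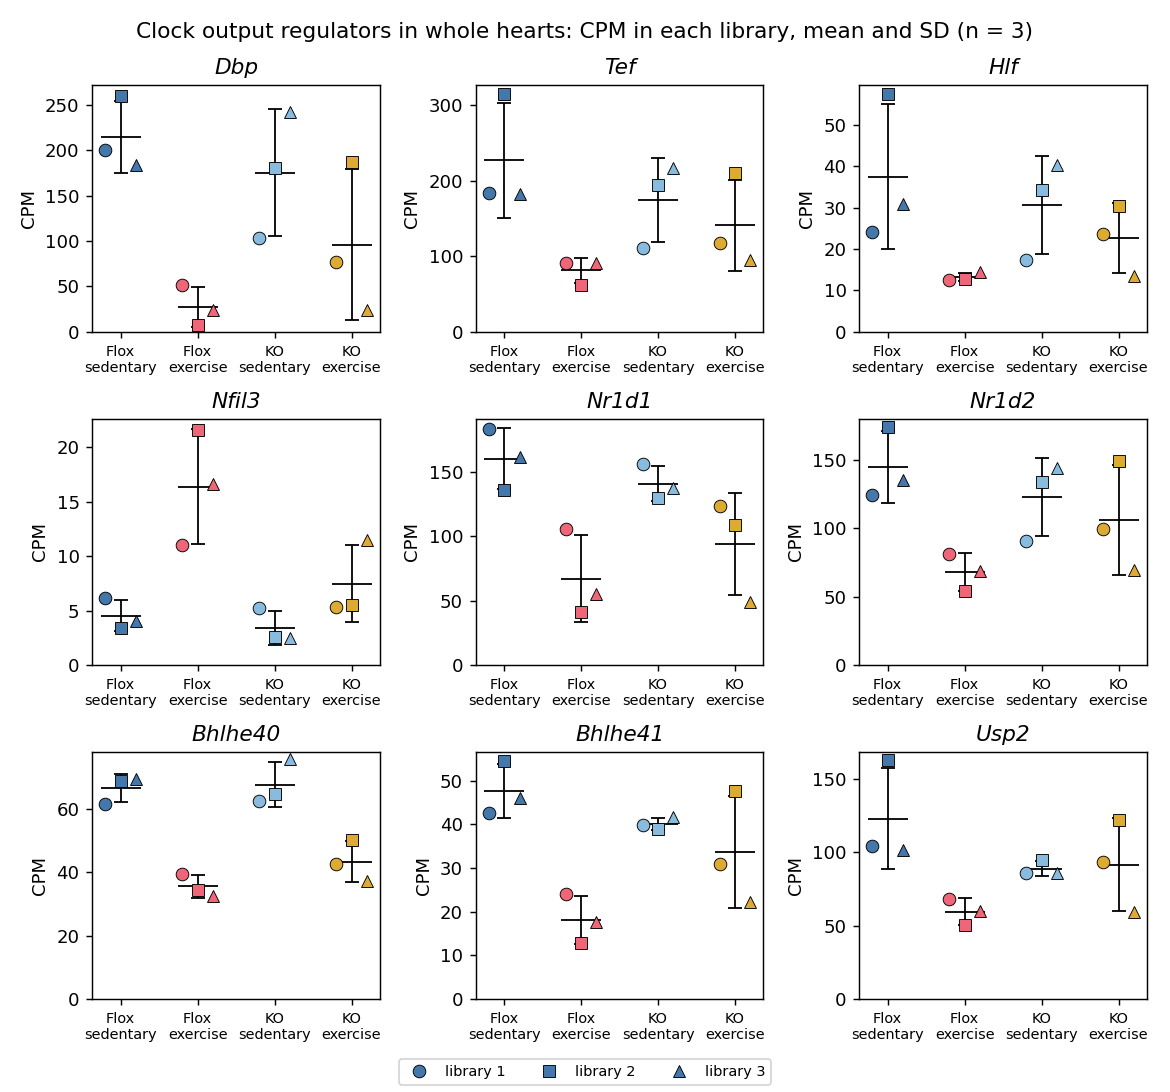
CPM of the 9 genes (vertical axes, each from 0) in the 4 groups, 1 symbol per library, with the mean as a horizontal line and the SD as a bar (n = 3). The 3 Flox libraries labelled exercise lie below the 3 labelled sedentary for 8 genes and above them for Nfil3, and KO labelled exercise 2 and 3 lie far apart.

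Among the PAR bZIP activators, Dbp differed most between the Flox groups. It stood at 200, 259 and 184 CPM in the Flox libraries labelled sedentary and at 51.0, 7.57 and 24.0 CPM in those labelled exercise. The groups did not overlap, and the lowest library rested on 144 counts. The log2 difference was -2.96 ± 0.84 (SE), a 7.78-fold lower level, with an edgeR unadjusted p = 0.00681 and an adjusted p = 0.523 over all genes. It was -3.76 without Flox labelled exercise 1 and -2.52 without Flox labelled exercise 2. In KO, Dbp stood at 103, 180 and 242 CPM in hearts labelled sedentary against 76.9, 187 and 23.7 CPM in hearts labelled exercise. Here the groups overlapped, because KO labelled exercise 2 lay within the sedentary range, and the log2 difference was -0.87 ± 0.78.

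Tef, which encodes another activator of the family, stood at 184, 314 and 182 CPM in Flox labelled sedentary and 91.8, 61.6 and 90.7 CPM in Flox labelled exercise. Every exercise library lay under every sedentary one, and the log2 difference was -1.48 ± 0.35 (edgeR adjusted p = 0.456). In KO the values were 111, 194 and 218 CPM against 117, 210 and 95.8 CPM, which overlapped (log2 difference -0.31 ± 0.35). Hlf, the third activator, stood at 24.1, 57.3 and 30.9 CPM in Flox labelled sedentary and 12.6, 12.7 and 14.4 CPM in Flox labelled exercise. The exercise libraries were close together and apart from the sedentary ones (log2 difference -1.50 ± 0.41, edgeR adjusted p = 0.510). In KO, Hlf stood at 17.4, 34.3 and 40.2 CPM against 23.7, 30.4 and 13.6 CPM, again with overlap (log2 difference -0.44 ± 0.40).

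Nfil3, the repressor of the same D-box sites, was the only one of the 9 genes that stood higher under the exercise label in Flox. It stood at 6.20, 3.41 and 4.09 CPM in Flox labelled sedentary and 11.0, 21.5 and 16.6 CPM in Flox labelled exercise, with no overlap (log2 difference 1.85 ± 0.40, edgeR adjusted p = 0.399). In KO it stood at 5.26, 2.60 and 2.51 CPM in sedentary-labelled hearts against 5.31, 5.58 and 11.5 CPM in exercise-labelled ones, which lay just apart (log2 difference 1.11 ± 0.40, edgeR adjusted p = 0.401). Its counts ran from 55 to 409.

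The activators and the repressor of the D-box can be set against each other in each heart as the ratio of summed Dbp, Tef and Hlf to Nfil3, in CPM. This ratio was 65.8, 185 and 97.2 in Flox labelled sedentary and 14.1, 3.81 and 7.79 in Flox labelled exercise. In KO it was 44.1, 157 and 199 with the sedentary label against 41.0, 76.7 and 11.6 with exercise. The lowest sedentary heart of either genotype thus had a ratio above the highest exercise heart of Flox, while KO labelled exercise 2 and 3 lay on opposite sides of KO labelled exercise 1.

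**Figure D2:**
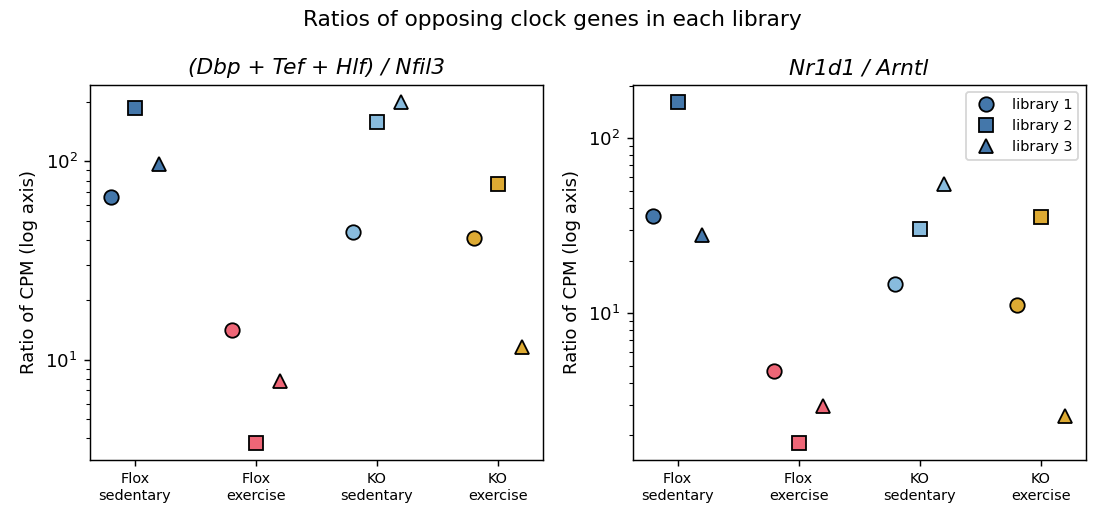
Ratio of the summed PAR bZIP activators to Nfil3 (left) and of Nr1d1 to Arntl (right), as ratios of CPM on log axes, with 1 symbol per library in the 4 groups. The 3 Flox libraries labelled exercise are at or below 14.1 (left) and 4.70 (right), and KO labelled exercise ranges from 11.6 to 76.7 and from 2.57 to 35.7.

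Of the REV-ERB receptors, Nr1d1 stood at 183, 136 and 162 CPM in Flox labelled sedentary and at 106, 41.2 and 55.2 CPM in Flox labelled exercise. The groups did not overlap, and the log2 difference was -1.25 ± 0.37 (edgeR adjusted p = 0.523). In KO the values were 156, 129 and 137 CPM against 124, 109 and 49.2 CPM, which did not overlap either (log2 difference -0.58 ± 0.37, edgeR unadjusted p = 0.143). Nr1d2 stood at 124, 174 and 135 CPM in Flox labelled sedentary and 81.3, 54.1 and 69.0 CPM in Flox labelled exercise, without overlap (log2 difference -1.09 ± 0.27, edgeR adjusted p = 0.456). In KO it stood at 90.8, 134 and 144 CPM against 99.5, 149 and 69.4 CPM, with overlap (log2 difference -0.21 ± 0.27).

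Arntl, the gene that REV-ERB represses, stood opposite to both between the Flox groups. It was at 5.08, 0.840 and 5.75 CPM in Flox labelled sedentary and 22.5, 22.7 and 18.8 CPM in Flox labelled exercise (log2 difference 2.45 ± 0.80, edgeR adjusted p = 0.562). Heart by heart within a group, Nr1d1 and Arntl did not always run opposite. KO labelled sedentary 1 had the highest Nr1d1 (156 CPM) and also the highest Arntl (10.7 CPM) of its group. The ratio of Nr1d1 to Arntl was 36.0, 162 and 28.1 in Flox labelled sedentary against 4.70, 1.82 and 2.94 in Flox labelled exercise, and 14.6, 30.4 and 54.6 against 11.2, 35.7 and 2.57 in KO. The pattern of the ratio by heart was that of the D-box ratio, with KO labelled exercise 3 within the Flox exercise range and KO labelled exercise 2 within the range of the sedentary hearts.

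Bhlhe40, the DEC1 repressor, had the most even values of the 9 genes. It stood at 61.5, 68.8 and 69.4 CPM in Flox labelled sedentary and at 39.5, 34.4 and 32.6 CPM in Flox labelled exercise. In KO it stood at 62.4, 64.8 and 75.7 CPM against 42.5, 50.1 and 37.3 CPM. All 6 exercise libraries lay under all 6 sedentary ones, in both genotypes and also in KO labelled exercise 2. The log2 difference was -0.91 ± 0.13 in Flox (edgeR adjusted p = 0.0715, the smallest unadjusted p of all genes there) and -0.64 ± 0.12 in KO (edgeR adjusted p = 0.109).

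Bhlhe41, its DEC2 paralog, had a larger difference in Flox and a wider spread in KO. It stood at 42.6, 54.5 and 45.9 CPM in Flox labelled sedentary and 24.0, 12.9 and 17.6 CPM in Flox labelled exercise (log2 difference -1.40 ± 0.26, edgeR adjusted p = 0.399). In KO it stood at 39.8, 38.9 and 41.6 CPM in the sedentary-labelled hearts against 31.0, 47.6 and 22.3 CPM in the others (log2 difference -0.25 ± 0.26). The KO sedentary hearts were nearly level, and the KO exercise hearts spanned a range on both sides of them.

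Usp2 stood at 104, 163 and 101 CPM in Flox labelled sedentary and 68.5, 50.2 and 59.8 CPM in Flox labelled exercise, without overlap (log2 difference -1.05 ± 0.25, edgeR adjusted p = 0.412). In KO it stood at 86.2, 94.5 and 85.9 CPM against 93.5, 122 and 59.2 CPM, a log2 difference of 0.04 ± 0.24 that ran from -0.22 to 0.29 when each library was left out in turn. Here too KO labelled exercise 2 was the highest and KO labelled exercise 3 the lowest of the 6.

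Counted over the 9 genes, the exercise label in Flox went with lower levels of 8 and a higher level of 1, and no gene passed the edgeR test at an adjusted p of 0.05. No gene of the 15226 tested passed it in this comparison (0% of genes). At an unadjusted p under 0.05, edgeR gave 8 genes lower (background 3.56% of all genes lower) and 1 higher (3.86%). DESeq2's Wald test, with its own adjustment, called 8 of the 9, all but Nr1d1, against 0.322% of all genes. The ranges of the groups of 3 stood apart downward for 8 genes (6.57% of all genes) and upward for 1 (7.5%). The median log2 difference of the 9 was -1.25, beside 0.01 over all genes tested. Because the 9 were chosen with earlier results of these data known, these shares are a description only.

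In KO the 9 genes had a median log2 difference of -0.31 under the same label change, beside -0.00 over all genes. No gene of the 9 passed the edgeR test (0.0197% of all genes did). At an unadjusted p under 0.05 there was 1 lower, Bhlhe40 (background 6.27%), and 1 higher, Nfil3 (4.35%). DESeq2 called Bhlhe40 only among the 9 (0.749% of all genes). Ranges stood apart downward for Bhlhe40 and Nr1d1 (7.31% of all genes) and upward for Nfil3 (5.82%). KO labelled exercise 2 and 3 weighed on the values in opposite ways: the difference of Dbp was -1.80 without the first and -0.40 without the second. Without KO labelled sedentary 1 the comparison called 566 genes of all those tested, in place of 3. Cell type markers differed between these groups too. Of 7 tested adipocyte markers 1 passed as lower with the exercise label and 5 were lower at an unadjusted p under 0.05 (median log2 difference -3.07). At that p 4 of 8 ventricular markers were higher and 2 of 4 smooth muscle markers lower. Their part in the differences of the 9 genes was not tested.

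**Figure D3:**
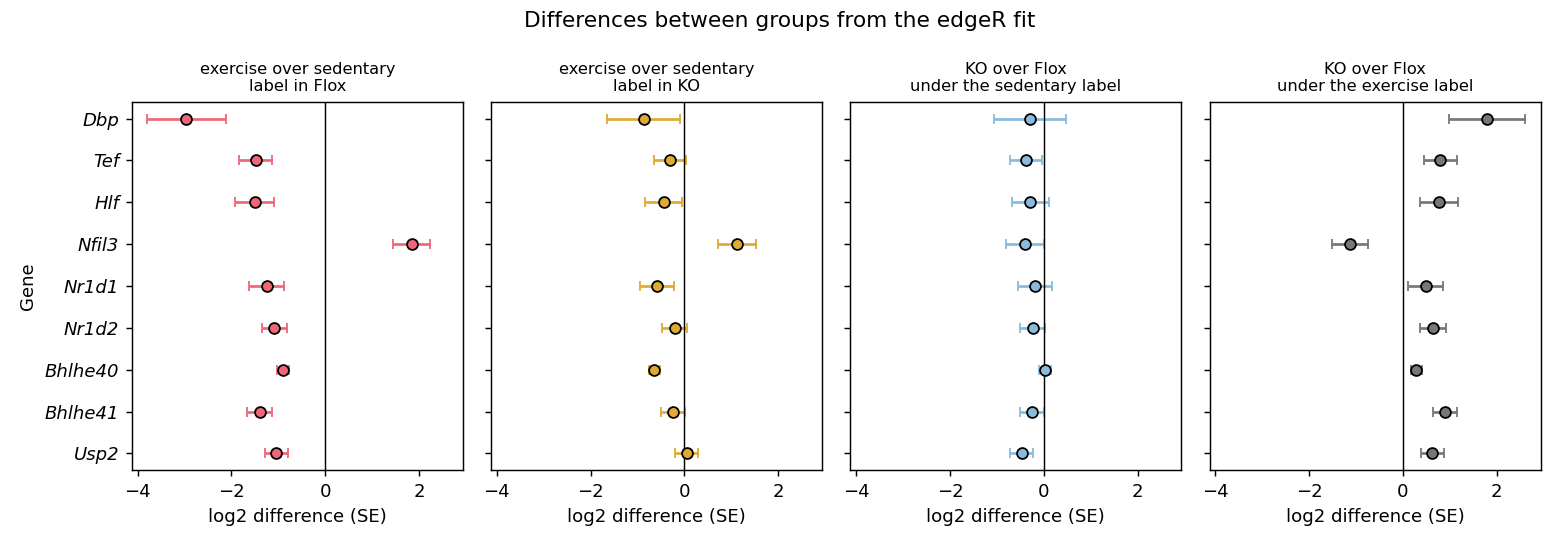
Log2 difference of each of the 9 genes (horizontal axes, with the SE as a bar) in 4 comparisons of 3 against 3 libraries, from the edgeR fit over 12 libraries. In Flox 8 genes lie below 0, from -2.96 (Dbp) to -0.91 (Bhlhe40), and Nfil3 at 1.85; KO over Flox under the exercise label has 8 genes above 0 and Nfil3 at -1.13.

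Averaged over genotype, 6 libraries against 6, Bhlhe40 fell by 0.78 ± 0.09 on the log2 scale under the exercise label, a 1.71-fold lower level (edgeR adjusted p = 0.0103, lower in 6 of 6 exercise libraries than in any sedentary one). It had the smallest p of all genes tested and was the only one of the 9 that passed, in a comparison that called 4 genes (0.0263%), the others being Angptl2, Clstn3 and Pfkfb3. The call was lost without Flox labelled sedentary 2 (adjusted p = 0.0598), Flox labelled sedentary 3 (0.0623), Flox labelled exercise 2 (0.0698) or KO labelled exercise 1 (0.0724), with a log2 difference of -0.76 to -0.77 in each case. At an unadjusted p under 0.05, 8 genes were lower (background 4.87%) and Nfil3 higher (3.58%). The Nfil3 difference was 1.48 ± 0.28 (edgeR adjusted p = 0.315), and that of Dbp -1.92 ± 0.57 (adjusted p = 0.481). DESeq2 called 4 of the 9, Bhlhe40, Bhlhe41, Hlf and Nfil3, against 0.322% of all genes. Bhlhe40 and Nr1d1 had all 6 exercise libraries below all 6 sedentary ones, which held for 0.243% of all genes. The median of the 9 was -0.82, beside 0.00 over all genes.

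Between genotypes, the 9 genes differed little under the sedentary label. Differences of KO over Flox ran from -0.47 ± 0.24 (Usp2) to 0.02 ± 0.12 (Bhlhe40) on the log2 scale, with a median of -0.29 beside 0.00 over all genes. None passed the edgeR test (0.125% of all genes did), none had an unadjusted p under 0.05 in either direction (5.41% of all genes were lower and 8.1% higher), and DESeq2 called none (2.59% of all genes). Ranges stood apart downward for Bhlhe41 and Usp2, 2 of 9, where 7.93% of all genes did so. Cell type markers differed here too, and 3 of 7 tested adipocyte markers passed as higher in KO (Cidec 5.36 ± 0.57, edgeR adjusted p = 0.0037; Adipoq 5.40 ± 0.66; Retn 4.65 ± 0.70). The median log2 difference of the 7 was 4.65. The summed adipocyte markers did not go the same way, at 629 to 778 CPM in KO against 700 to 907 in Flox. A sum of CPM rests mostly on its most abundant markers, and which these were was not examined. The sum therefore cannot be set against the called markers. At an unadjusted p under 0.05, 4 of 8 ventricular markers were lower in KO, and 4 of 6 fibroblast markers, 3 of 4 smooth muscle markers and 2 of 8 atrial markers were higher. Macrophage markers summed to 125 to 173 CPM in KO against 105 to 123 in Flox, and Schwann and neuronal markers to 16.2 to 23.1 against 10.9 to 13.5. The part of these cell types was not tested. Without KO labelled sedentary 1 the comparison called 479 genes of all those tested, in place of 19. When the mean of the atrial markers was added to the fit, the differences of Dbp (0.86), Tef (0.12), Nr1d1 (0.16), Nr1d2 (0.10) and Bhlhe41 (0.19) lay above 0. The direction for these genes, Bhlhe41 with its separate ranges among them, therefore turned with that term.

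Under the exercise label, 8 of the 9 stood higher in KO than in Flox and Nfil3 stood lower. The Dbp difference was 1.80 ± 0.81, with unadjusted p = 0.0541 from edgeR, and the KO and Flox libraries overlapped. Leaving out Flox labelled exercise 1 gave 2.60, and leaving out KO labelled exercise 2 gave 0.87. Bhlhe41 (0.89 ± 0.26), Tef (0.79 ± 0.35), Nr1d2 (0.64 ± 0.27), Usp2 (0.62 ± 0.24) and Bhlhe40 (0.29 ± 0.12) had an unadjusted p under 0.05, 5 genes higher where the background was 3.87%. Nfil3 (-1.13 ± 0.38) was the 1 lower, where the background was 4.07%. None passed the edgeR test (0.00657% of all genes did), and DESeq2 called none (0.0657%). Only Tef had ranges that stood apart (7.61% of all genes upward). The median of the 9 was 0.64, beside -0.01 over all genes. Endothelial markers summed to 608 to 747 CPM in KO against 775 to 921 in Flox here, with 5 of 6 lower at an unadjusted p under 0.05, and their part was not tested. These values share the Flox exercise and KO exercise libraries with the exercise comparisons above. Averaged over the treatment label no gene of the 9 passed (0.0525% of all genes did), Nfil3 alone had an unadjusted p under 0.05 (-0.77 ± 0.28, lower, background 5.64%), none was higher (5.98%), and DESeq2 called none (1.13%).

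The interaction asks whether the difference between the treatment labels was another in KO than in Flox. It was above 0 for 8 genes and below 0 for Nfil3 (-0.73 ± 0.56). Tef (1.17 ± 0.49), Bhlhe41 (1.14 ± 0.36), Usp2 (1.09 ± 0.34) and Nr1d2 (0.87 ± 0.38) had an unadjusted p under 0.05, 4 of 9 upward where 4.37% of all genes were and none downward (5.52%). The edgeR adjusted p was 0.412 for Bhlhe41 and for Usp2, no gene of all those tested passed (0%), and DESeq2 called none of the 9 (0.315% of all genes). A difference of exercise response between the genotypes was therefore not shown for any of these genes, and that of Dbp, 2.09 ± 1.12, has the widest error. Its value moved to 2.89 when Flox labelled exercise 1 was left out, and to 1.16 when KO labelled exercise 2 was. The median of the 9 was 1.06, beside -0.02 over all genes.

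The core loop genes were examined beside them as a list of 11, all of which were tested. In Flox the activating limb stood higher under the exercise label, with Arntl as given, Npas2, the CLOCK paralog, at 2.36 ± 0.946 against 6.19 ± 0.758 CPM (mean ± SD, n = 3; log2 difference 1.39 ± 0.53) and Clock at 33.3 ± 6.70 against 45.6 ± 5.31 CPM (0.46 ± 0.18). Of the repressing limb, Per2 stood at 25.3 ± 10.8 against 5.97 ± 2.75 CPM (-2.09 ± 0.64), Per3 at 62.7 ± 22.9 against 18.6 ± 3.62 CPM (-1.76 ± 0.51) and Cry2 at 43.0 ± 12.8 against 23.0 ± 1.48 CPM (-0.90 ± 0.20). Ciart (Chrono), a repressor of BMAL1 and CLOCK, had the largest difference of the list, 13.2, 28.4 and 11.9 CPM against 2.68, 1.52 and 1.99 CPM (-3.11 ± 0.68, edgeR adjusted p = 0.426). Per1 (-0.78 ± 0.47) differed by less, and Cry1 was on the other side (0.58 ± 0.25). Rora, a receptor that activates ROR elements, differed by -0.44 ± 0.18 and its paralog Rorb, which stood under 1 CPM in every library, by 0.10 ± 0.58. At an unadjusted p under 0.05, 4 of the 11 were higher (3.86% of all genes) and 5 lower (3.56%) in Flox and none in KO (4.35% higher and 6.27% lower), and no gene of the list passed the edgeR test in any comparison.

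In KO, Arntl, Per3 and Ciart spread widely within a group. Arntl stood at 10.7, 4.25 and 2.51 CPM in the sedentary-labelled hearts against 11.0, 3.05 and 19.1 CPM in the others (log2 difference 0.93 ± 0.77). Per3 stood at 24.8, 60.5 and 65.6 CPM against 27.7, 69.1 and 22.8 CPM (-0.34 ± 0.49), and Ciart at 5.55, 18.0 and 16.4 CPM against 4.17, 11.0 and 2.35 CPM (-1.19 ± 0.61). KO labelled exercise 3 had the highest Arntl and the lowest Per3 and Ciart of the KO exercise hearts, and KO labelled exercise 2 the reverse. Between genotypes under the exercise label, Cry2 was the 1 gene of the 11 with an unadjusted p under 0.05 (0.59 ± 0.20), and under the sedentary label there was none.

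**Figure D4:**
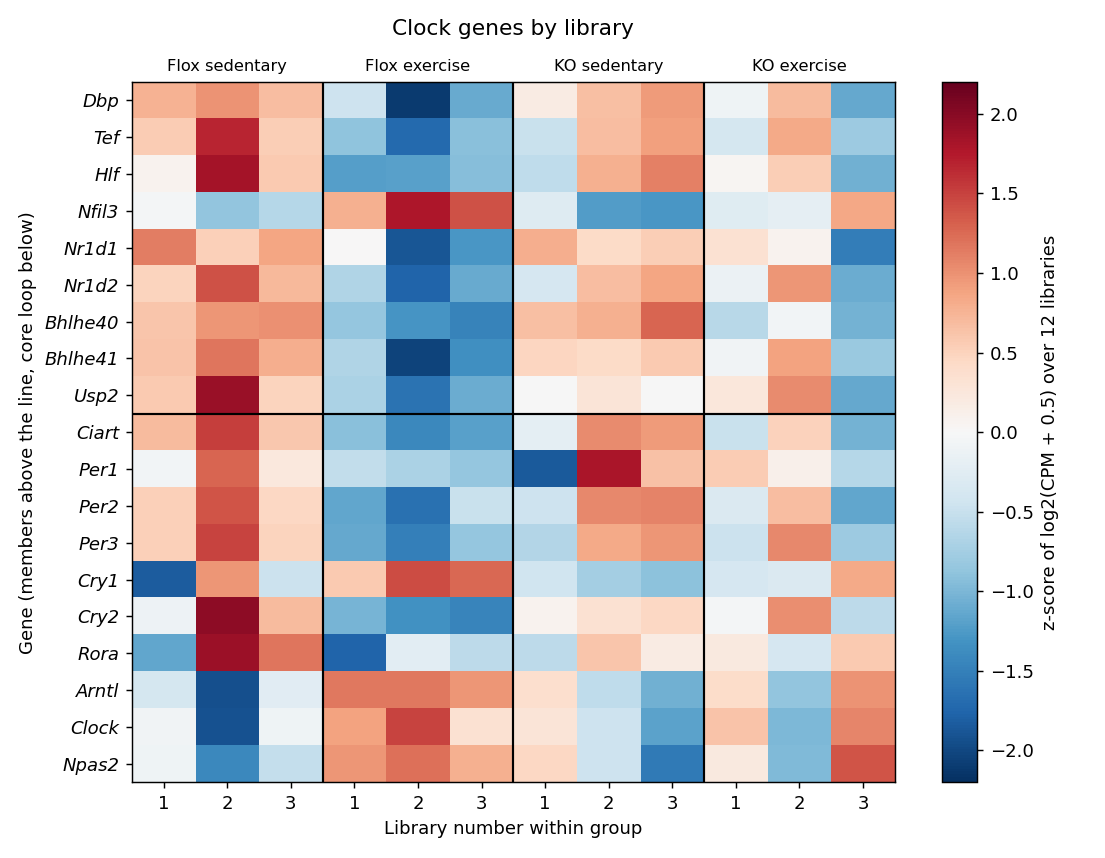
Each row is a gene and each column a library, ordered by group; colour is the z-score over 12 libraries of log2 CPM after adding 0.5, with the 9 genes above the line and 10 core loop genes below. The 3 Flox exercise columns are low for 8 of the 9 genes, except that Nr1d1 in Flox exercise 1 is near its mean over libraries. The same 3 columns are high for Nfil3 and Arntl. KO exercise 3 is low for the same 8 genes, for which KO exercise 2 is mostly near or above the mean over libraries.

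Other lists linked to the clock were counted in Flox in the same way, against the 3.86% of all genes that were higher and the 3.56% that were lower. Of 9 tested clock kinases and stability factors none had an unadjusted p under 0.05, with Csnk1e, a kinase of PER, at -0.14 ± 0.11. Of 15 genes rhythmic across mouse organs, 5 were lower and none higher at that p, among them Klf9 (-0.69 ± 0.17), Gpcpd1 (-0.96 ± 0.24) and Klf15 (-0.66 ± 0.17), a regulator of cardiac metabolism. Of 5 tested targets of the PAR bZIP factors only Ces2e was lower (-1.04 ± 0.47), and these targets are known mainly from liver. Of 15 glucocorticoid-responsive genes 4 were higher and 4 lower, with Zbtb16 at -2.96 ± 0.64 and Sgk1 at 0.51 ± 0.12. Of 11 genes that respond to cold or heat 6 were higher and 1 lower: the chaperones Dnaja1 (0.92 ± 0.13, edgeR adjusted p = 0.0715) and Hspa8 (0.54 ± 0.14) and, lower, the cold-induced Cirbp (-0.68 ± 0.15). Dnaja1 stood at 46.8 to 48.8 CPM in Flox hearts labelled sedentary and 75.1 to 102 CPM in those labelled exercise, and at 56.6 to 64.7 CPM against 55.5 to 75.1 CPM in KO. Of 12 immediate early genes none had an unadjusted p under 0.05 in Flox. No gene of these lists passed the edgeR test in Flox, nor in the other comparisons. Their part in the differences of the clock genes was not tested.

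In KO, where 6.27% of all genes were lower and 4.35% higher at an unadjusted p under 0.05 with the exercise label, none of the 15 rhythmic genes reached that p, and of the PAR bZIP targets only Gys2 did, which stood lower (-5.47 ± 1.03, edgeR adjusted p = 0.124). Of the immediate early genes 4 of 12 stood lower there, among them Jun (-0.49 ± 0.15). Between genotypes, 3 of the 15 rhythmic genes stood lower in KO with the sedentary label, including Gpcpd1 (-0.66 ± 0.24), where 5.41% of all genes were, and 3 of the 12 immediate early genes stood higher, where 8.1% of all genes were. With the exercise label (4.07% of all genes lower and 3.87% higher), 2 rhythmic genes stood higher in KO, Klf15 (0.49 ± 0.17) and Klf9 (0.39 ± 0.17). Of the cold and heat list 5 of 11 stood lower in KO with the exercise label, among them Dnaja1 (-0.50 ± 0.13), and none higher. With the sedentary label 2 of the 11 stood higher in KO and none lower. Of 15 glucocorticoid-responsive genes 3 stood lower and 1 higher in KO with the exercise label, and 1 each way with the sedentary label. Of 5 tested PAR bZIP targets 1 stood higher in KO with either label. No gene of the kinase list reached that p in any of the 4 pairwise comparisons.

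Across the 12 libraries the 9 genes varied together, as a description over hearts that share group and label. Of 28 pairs that leave out Nfil3 the Pearson correlation of log2 CPM ran from 0.65 (Hlf with Nr1d1) to 0.98 (Tef with Nr1d2), and of the 8 pairs with Nfil3 from -0.92 to -0.77. With group means removed the first ran from 0.14 (Hlf with Nr1d1) to 0.95 (Tef with Nr1d2) and the second from -0.88 to -0.56. Within groups Nr1d1 thus went little with Hlf and with Tef (0.28), and more with Dbp (0.77) and Bhlhe41 (0.74). The genes outside the 9 that were most like each were often core loop genes: Per3 for Tef (0.99), Ciart for Nr1d2 (0.97) and for Dbp (0.94), followed by Per2 for Dbp (0.91). For Hlf they were Fam76a (0.96) and Pik3ip1 (0.95), for Nr1d1 Tns2 (0.95) and Klf10 (0.94), for Usp2 Tulp4 (0.95) and Xrn2 (0.94), for Bhlhe41 Xrn2 and Ciart (0.92 each), for Bhlhe40 Hhat (0.94) and Ciart (0.92), and for Nfil3 Pdia6 (0.91) and Plau (0.90). The mean z-score of Dbp, Tef, Hlf, Nr1d1, Nr1d2 and Per3 went most closely with Ciart (0.98), Per2 (0.96) and Bhlhe41 (0.96). The genes most opposite to it were Serpinh1 (-0.95), Pdia6 (-0.95) and Hyou1 (-0.94), which encode chaperones and a disulfide isomerase of the endoplasmic reticulum.

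The spread between hearts of a group was itself wide for these genes. The median SD of log2 CPM of the 9 was 0.26 (sedentary label) and 0.33 (exercise label) in Flox, and 0.36 and 0.59 in KO. Over 13396 genes the medians were 0.16 and 0.16 in Flox and 0.19 and 0.17 in KO, in the same order. Dbp varied most, by 34.2-fold between its lowest and highest library (Flox labelled exercise 2 and Flox labelled sedentary 2), and Bhlhe40 least, by 2.32-fold. Within a group Dbp varied by 1.41-fold (sedentary label) and 6.74-fold (exercise label) in Flox, and by 2.34-fold and 7.90-fold in KO. Bhlhe41 and Usp2 were nearly level in KO labelled sedentary (1.07-fold and 1.10-fold), where Hlf varied by 2.31-fold.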

How the data were processed

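Whole-heart RNA of 12 libraries was used, with ribosomal RNA removed by a RiboZero kit per the labels' protocols. Deposited values are unscaled estimated counts for each gene symbol, made by the authors with Salmon per the submitters' processing notes, which name FastQC, mm9 and mm10 with no role or version. The annotation release is not stated. Values were rounded before testing: over the 27544 gene symbols above 0 in any library, 21.6% to 26.4% per library had a decimal part other than 0 (tolerance 0). Left out were 1688 entries that name no mouse gene (3.87e-05% to 0.186% of counts). Chi-square over degrees of freedom was 17.5 to 89.5 between replicates, so none was entered again.

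All genes were tested in R 4.3.3 with edgeR 4.0.16: filterByExpr, TMM, a mean for each group over 12 libraries, the robust quasi-likelihood test and Benjamini-Hochberg adjustment at 0.05. SE came from the F statistic, and CPM from TMM-scaled totals. Alternatives were DESeq2's size factors, no filter, DESeq2 1.42.0, a replicate block, an atrial covariate and each library left out. The procedure was also run on simulated data, and the outcome is not given here. Positions are GENCODE M21 on GRCm38, and promoters RefSeq on GRCm38.p6.

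The 9 genes and all lists were chosen with earlier results of these data known. Named were the 9 genes in every comparison, 11 core loop genes (1 further gene is not reported here), of each other list at most 3 genes with the smallest p in a comparison and any called, and Cited4. Likeness named the 2 genes with the highest Pearson correlation to each of the 9, and the 3 highest and 3 lowest to the mean z-score, at 1 CPM or more. Of the called genes outside the lists, Angptl2, Clstn3 and Pfkfb3 were named after their values were seen.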

Additional observations from a re-analysis of the deposited data

How the results depend on the processing

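The number of the 9 genes called with the exercise label in Flox was 0, and it was 1 without the filter on low counts, 8 with DESeq2, and 0 to 1 when each library was left out (1, Bhlhe40, without KO labelled exercise 2 or 3). In KO it was 0, and 1 without the filter, 1 with DESeq2 and 0 to 1 when a library was left out (1 without KO labelled sedentary 1), the gene being Bhlhe40 each time. Averaged over genotype it was 1, and 4 with DESeq2 and 0 to 1 when a library was left out. For the averaged Bhlhe40 difference, the adjusted p was 0.0117 with DESeq2's size factors, 1.71e-11 with DESeq2, 0.0284 with the replicate block, 0.0266 with the atrial covariate, and 0.00548 to 0.0724 when a library was left out. The other 4 comparisons kept a count of 0 under each alternative run.

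Of 1071 values of single genes under an alternative, 1038 kept direction and side of the threshold, 17 newly passed, 4 no longer passed, and 12 that had not passed changed sign. With the atrial covariate the sign turned for Usp2 with the exercise label in KO (-0.23) and, between genotypes under the sedentary label, for Dbp (0.86), Tef (0.12), Nr1d1 (0.16), Nr1d2 (0.10) and Bhlhe41 (0.19). Leaving out a library gave a range through 0 for Nr1d2 (-0.54 to 0.030) and Usp2 (-0.22 to 0.29) with the exercise label in KO, under the sedentary label between genotypes for Hlf (-0.55 to 0.15) and Bhlhe40 (-0.076 to 0.060), and for Usp2 in KO over Flox averaged over treatment (-0.054 to 0.21). The cause was not tested.

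Over all genes, DESeq2 called 49, 114, 394, 10, 49, 172 and 48 genes in the 7 comparisons where edgeR called 0, 3, 19, 1, 4, 8 and 0, and without the filter edgeR called 2, 30, 120, 4, 10, 49 and 1. Without KO labelled sedentary 1 edgeR called 566 genes with the exercise label in KO, 479 between genotypes under the sedentary label, and 12 and 34 in the 2 averaged comparisons, in place of 3, 19, 4 and 8. Same-numbered libraries of different groups had deviations from their group means that correlated by -0.39 to 0.36, with 6 of 18 over 0.1. Differently numbered libraries reached -0.48 and 0.36 as well. Deviations within groups of 3 are tied to each other, so this check cannot decide whether the numbers pair the hearts. With the replicate block Bhlhe40 averaged over genotype stood at -0.78 ± 0.09, and no call among the 9 genes changed.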
